A study of Mus musculus with 8 samples.

Results

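Most of the genes described here encode enzymes that write or erase methyl and acetyl groups on histones. The list was meant to lie outside the Polycomb complexes, but members were found by name alone. They comprised the KDM, SETD, SETDB, SUV39H, SUV420H, EHMT, MLL, PRMT, HDAC, SIRT and KAT symbols of the expression table, with Dot1l, Nsd1, Whsc1, Ep300, Crebbp and Wdr5, and without 3 KDM genes left out by the rule. The rule found 70 rows of 17922, which stood for 69 genes, because Hdac4 was on 2 rows. Symbols are those of the table, and several have newer names, such as Kmt2a for Mll1, Kmt2d for Mll2, Kmt5c for Suv420h2 and Nsd2 for Whsc1.

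The series followed mouse fibroblasts during reprogramming to induced pluripotent stem cells (iPSCs). The starting cells (MEFs, day 0) were C57BL/6 embryonic fibroblasts from fetuses of day 13.5, taken from mice carrying a tetO-OSKM transgene, which doxycycline switches on to express Oct4, Sox2, Klf4 and Myc. The other groups were such cultures on day 3 and day 6 of induction with doxycycline at 2 ug/ml in KSR medium with LIF, CHIR99021 and N-2, and fully reprogrammed iPSCs derived from MEFs. All 4 groups therefore carried the transgene. Each group had 1 long RNA library, so no test and no error across libraries was possible. The sources used here give neither the number of fetuses or iPSC lines behind a library nor the culture medium before induction.

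Histone methylation is placed by enzymes with a SET domain, by DOT1L and, on arginines, by the PRMT family, and is removed by the LSD1-type and Jumonji-type lysine demethylases (KDM). Acetylation is placed by acetyltransferases such as p300 and CBP and is removed by zinc-dependent histone deacetylases (HDAC) and NAD-dependent sirtuins (SIRT). Methylation of H3K4 marks active promoters and enhancers, and methylation of H3K9 and H4K20 marks heterochromatin. In pluripotent cells chromatin is known to be open, and H3K9 methylation is known as a barrier to reprogramming.

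Levels are FPKM, fragments scaled to gene length and library size, so they can be set beside each other between genes. Differences are on the scale log2(FPKM + 1), which understates those of weakly expressed genes. A gene is called higher or lower when this difference was at least 1 and the higher value at least 1 FPKM. In bulk RNA, fewer cells expressing a gene and less RNA per cell cannot be told apart.

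The labels were checked against markers. Of 6 pluripotency markers, Pou5f1, which is also a factor of the transgene, was at 0.226 FPKM in MEFs, 3.03 on day 3, 8.56 on day 6 and 740 in iPSCs. The other 5 lay at 0.398 FPKM or less in the first 3 libraries and between 84.4 and 344 in iPSCs, Nanog among them with 0.398, 0.270, 0.241 and 171. The summed FPKM of 8 fibroblast markers, such as Col1a1 and Thy1, was 6800, 7456, 7416 and 73.8. Markers of macrophages and leukocytes (7 genes) summed to between 51.5 and 77.7 FPKM in the 4 libraries, those of cartilage (4 genes) to between 3.14 and 995, those of keratinocytes (5 of 6 genes found) to between 3.94 and 20.8, and those of endothelium (4 genes) to between 0.423 and 29.0. Macrophage markers did not go one way, as Lyz2 had 52.9 and 0.0298 FPKM in MEFs and iPSCs, and Laptm5 4.31 and 38.5. Tyrobp (7.88 FPKM in MEFs) and Ptprc (0.703) were listed at 0 in iPSCs. From the worth of the lowest values, the day 3 library held an estimated 0.66 of the fragments of the MEF library, so its low values were the least precise.

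All members but Kdm4d reached 1 FPKM in at least 1 library, and 65 of 69 did so in all 4. The median level of the members was 9.70 FPKM in MEFs, 11.2 on day 3, 10.4 on day 6 and 17.0 in iPSCs. In MEFs the most abundant was Hdac2 with 50.1 FPKM, followed by Setd8, the H4K20 monomethyltransferase, with 45.0, Kdm1a (LSD1) with 44.0 and Ehmt2 (G9a) with 43.4. In iPSCs the leading member was Kdm5b, an H3K4 demethylase, with 76.6 FPKM, followed by Hdac2 with 71.9, Kdm1a with 67.7, Prmt1 with 63.1 and Setd8 with 62.2. At least 40 FPKM was reached by 4 members in MEFs and by 14 in iPSCs, and by 5 on day 3 and 1 on day 6. Of the 69 genes, 45 had their highest value in iPSCs, 8 in MEFs, 10 at day 3 and 6 at day 6. Shares of all rows were not taken for these counts or for the 40 FPKM level. The counts are therefore not read as a trait of the members. Among all rows, the members' median percentile was 62.3 in MEFs, 64.9 on day 3, 63.7 on day 6 and 75.8 in iPSCs. The testis-enriched demethylase gene Kdm4d was at 0.133, 0.0422, 0.0523 and 0.129 FPKM across the stages.

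**Figure D1:**
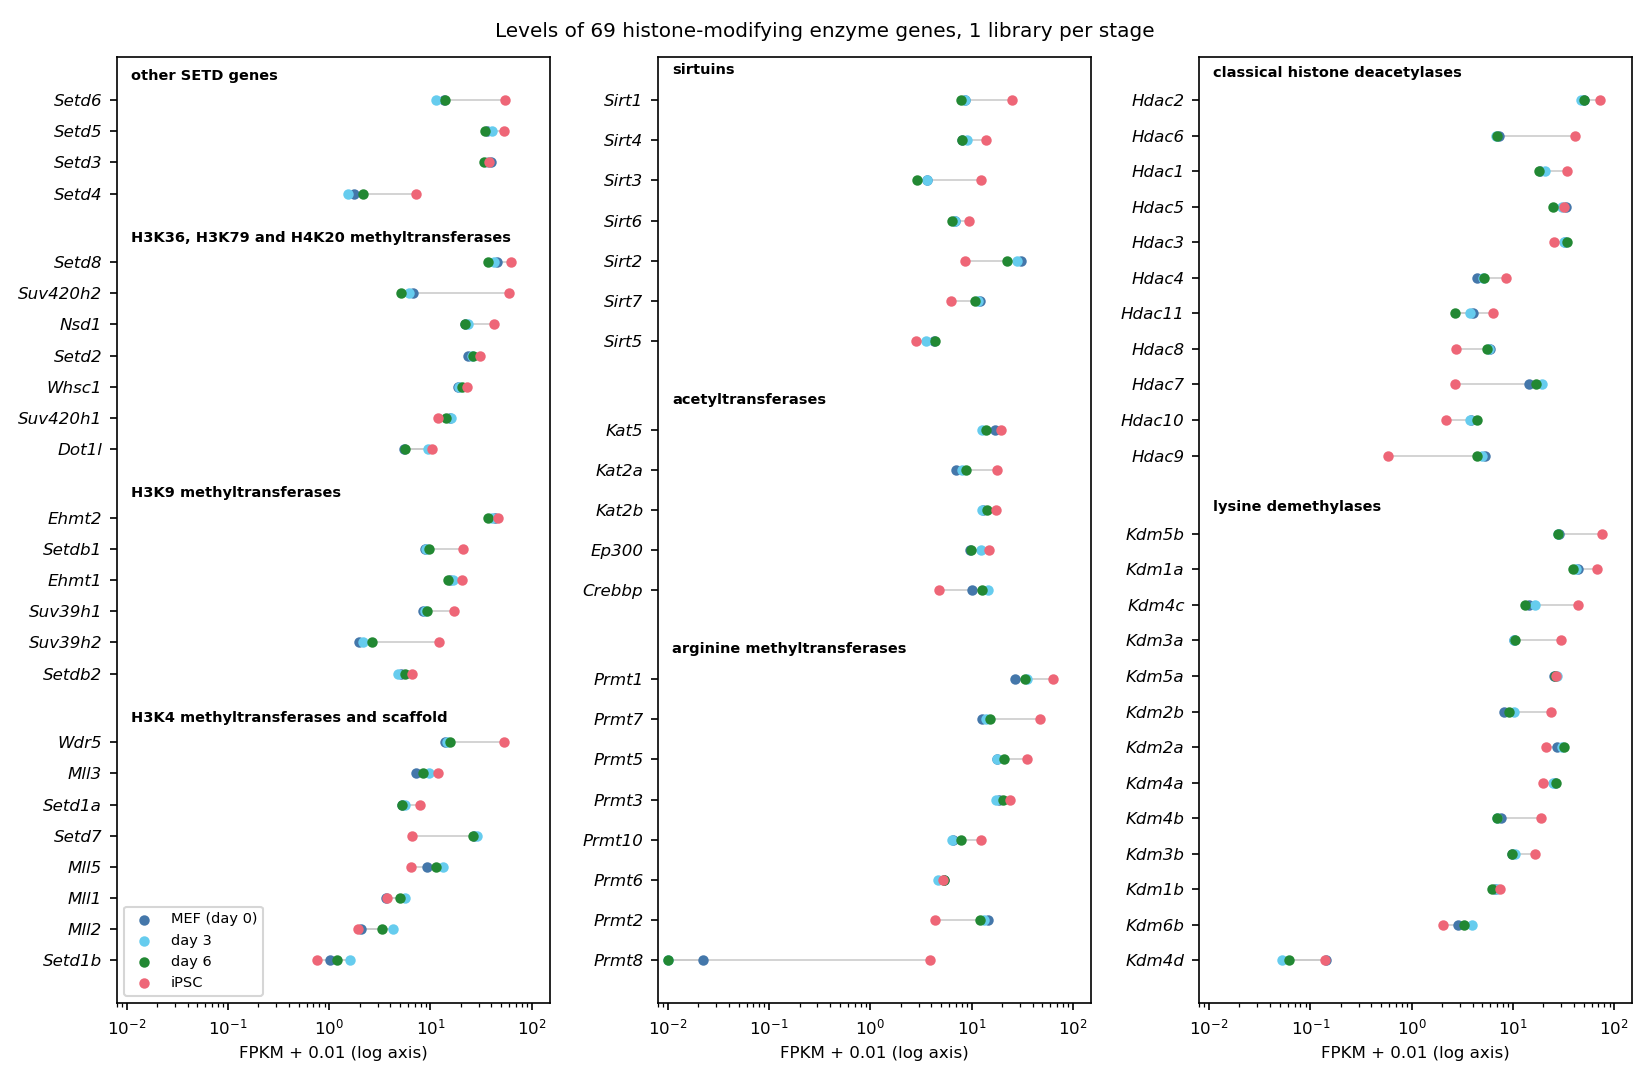
Levels of the 69 genes in FPKM plus 0.01 on a log axis, grouped by role, with 1 point per library (MEFs, day 3, day 6 and iPSCs) joined by a grey line. The MEF, day 3 and day 6 points of most genes lie close together, and the iPSC point of 45 genes is the highest of the 4.

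To show the start regions of the genes with the largest differences, the promoters of 4 members are printed, from RefSeq on assembly GRCm38.p6, each from 250 bases before to 50 after the gene's start and in the gene's own direction. They are the pair with the largest positive and the pair with the largest negative difference between iPSCs and MEFs among the 42 members for which the table lists a single start. Capitals mark matches to the motifs searched, on either strand.
Suv420h2 (chr7:4739877-4740176, plus strand, higher in iPSCs): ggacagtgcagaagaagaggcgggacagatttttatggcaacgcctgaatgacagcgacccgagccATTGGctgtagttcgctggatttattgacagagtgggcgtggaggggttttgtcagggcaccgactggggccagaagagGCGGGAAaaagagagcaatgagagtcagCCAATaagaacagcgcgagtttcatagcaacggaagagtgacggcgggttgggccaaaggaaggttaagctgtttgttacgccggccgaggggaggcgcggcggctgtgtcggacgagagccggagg
Hdac6 (chrX:7947840-7948139, minus strand, higher in iPSCs): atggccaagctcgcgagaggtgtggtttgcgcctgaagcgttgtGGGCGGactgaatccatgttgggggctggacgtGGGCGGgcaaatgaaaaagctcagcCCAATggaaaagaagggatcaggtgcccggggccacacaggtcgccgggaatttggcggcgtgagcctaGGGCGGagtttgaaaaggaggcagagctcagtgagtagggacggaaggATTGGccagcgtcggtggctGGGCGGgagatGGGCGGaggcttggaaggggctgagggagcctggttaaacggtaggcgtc
Setd7 (chr3:51560774-51561073, minus strand, lower in iPSCs): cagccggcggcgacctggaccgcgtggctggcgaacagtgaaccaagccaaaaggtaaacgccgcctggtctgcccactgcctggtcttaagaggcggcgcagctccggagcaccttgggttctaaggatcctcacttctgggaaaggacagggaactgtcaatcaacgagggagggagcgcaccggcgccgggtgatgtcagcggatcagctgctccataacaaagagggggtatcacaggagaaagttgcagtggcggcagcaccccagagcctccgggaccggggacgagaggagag
Sirt2 (chr7:28766502-28766801, plus strand, lower in iPSCs): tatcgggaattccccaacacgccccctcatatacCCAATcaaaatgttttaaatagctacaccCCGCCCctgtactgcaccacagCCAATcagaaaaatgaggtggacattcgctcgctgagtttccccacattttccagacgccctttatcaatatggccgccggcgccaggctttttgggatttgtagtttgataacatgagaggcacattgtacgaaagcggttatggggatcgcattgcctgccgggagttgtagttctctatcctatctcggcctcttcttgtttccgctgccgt

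The motifs were the E-box CACGTG, the GC box GGGCGG, the CCAAT box, the octamer ATGCAAAT, the SOX core CATTGTT, the NRF1 half-site TGCGCA and an E2F-like site TTCCCGC, which can overlap with a GC box. The Hdac6 window held 5 GC boxes and 2 CCAAT boxes. The Suv420h2 window held 2 CCAAT boxes and 1 E2F-like site, the Sirt2 window 2 CCAAT boxes and 1 GC box, and the Setd7 window none of the 7 motifs. Over the 57 members with an entry (the first listed start of each), a GC box was in 63.2% of windows, against 65.9% of the 9157 windows of other genes with at least 1 FPKM in any library and 35.9% of all 27025. The CCAAT box was in 42.1%, 39.1% and 37.9%, the E-box in 10.5%, 10.4% and 7.24%, the E2F-like site in 7.02%, 8.71% and 4.66%, and the NRF1 half-site in 24.6%, 14.4% and 8.06%. The octamer was in 0 of 57 member windows (1.44% of other expressed genes, 1.75% of all), and so was the SOX core (1.87% and 3.87%). The median number of CpG dinucleotides was 22 in member windows, 21 in those of other expressed genes and 7 in all windows. A match is a run of letters and not a bound site.

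Before the iPSC stage no member passed the rule. At day 3 against MEFs 0 of 67 members compared were higher and 0 lower, where 0.17% of all 11740 rows compared were higher and 0.0511% lower (0.221% in either direction). At day 6 against day 3 the counts were again 0 and 0 of 67 (0.457% of all rows higher and 0.398% lower, 0.855% in either direction), and at day 6 against MEFs also 0 and 0 of 67 (0.77% and 0.584%, 1.35% in either direction). At such background shares a list of this size would hold few or no called genes, so these counts say little about the members in particular. The members' log2 range over MEFs, day 3 and day 6 had a median of 0.21, and that of the 11884 rows with at least 1 FPKM in these libraries 0.22. The range was under 0.5 for 65 of the 69 genes (94.2%) and for 88.4% of those rows.

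The MLL genes, which encode large H3K4 methyltransferases, were among the members that differed most at day 3. Mll2 was at 2.07 FPKM in MEFs, 4.26 on day 3, 3.29 on day 6 and 1.93 in iPSCs, a difference of 0.78 at day 3. Mll1 was at 3.63, 5.58, 4.95 and 3.69, Mll5, a divergent family member, at 9.26, 13.4, 11.3 and 6.43, and Mll3 at 7.17, 9.73, 8.35 and 11.8. Each of these 4 genes was above its MEF level at day 3 and lay between its MEF and day 3 levels at day 6. Dot1l, the H3K79 methyltransferase, was at 5.51, 9.36, 5.62 and 10.2 FPKM, 0.67 above MEFs at day 3 and 0.02 at day 6. Crebbp (CBP) was at 10.0, 14.6 and 12.7 FPKM before the iPSC stage, and Ep300 (p300) at 9.56, 12.4 and 9.81.

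At day 3, 11 of 67 members (16.4%) were at least 0.3 above MEFs, where 6.2% of all rows were. At least 0.3 below was 1 member, Kat5 (TIP60) with 17.0 and 12.6 FPKM, where 4.9% of all rows were. The other members above 0.3 were Prmt1, Hdac7, Kdm6b and Setd1b, with differences from 0.35 to 0.41. At day 6 against MEFs, 5 members (7.5%) were at least 0.3 above and 4 at least 0.3 below, where 9.7% and 13.4% of all rows were. The band of 0.3 was chosen after the values were seen. The lower depth of the day 3 library goes with these values, and its part in them was not tested. All 8 members of the H3K4 group, the scaffold gene Wdr5 among them, were above their MEF value at day 3 (median 0.38), against a median of -0.02 over all rows compared.

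The 4 members at least 0.3 below MEFs at day 6 were 3 deacetylase genes and Suv420h2. Hdac11 was at 4.02, 3.75 and 2.69 FPKM in MEFs and on days 3 and 6 (difference of day 6 from MEFs -0.45), and Sirt2, a mainly cytoplasmic deacetylase, at 30.5, 28.2 and 22.2 (-0.44). Hdac5 was at 33.4, 30.8 and 24.9 (-0.41) and Suv420h2 at 6.77, 6.19 and 5.13 (-0.34). In these 4 genes the day 6 value was the lowest of the 3. The HDAC group as a whole had a median of -0.04 at day 6, with 5 of 11 genes above their MEF value. The members farthest above MEFs at day 6 were Mll2 (0.49), Mll1 (0.36) and Prmt1, the main asymmetric arginine methyltransferase, with 26.6, 35.4 and 33.7 FPKM (0.33).

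**Figure D2:**
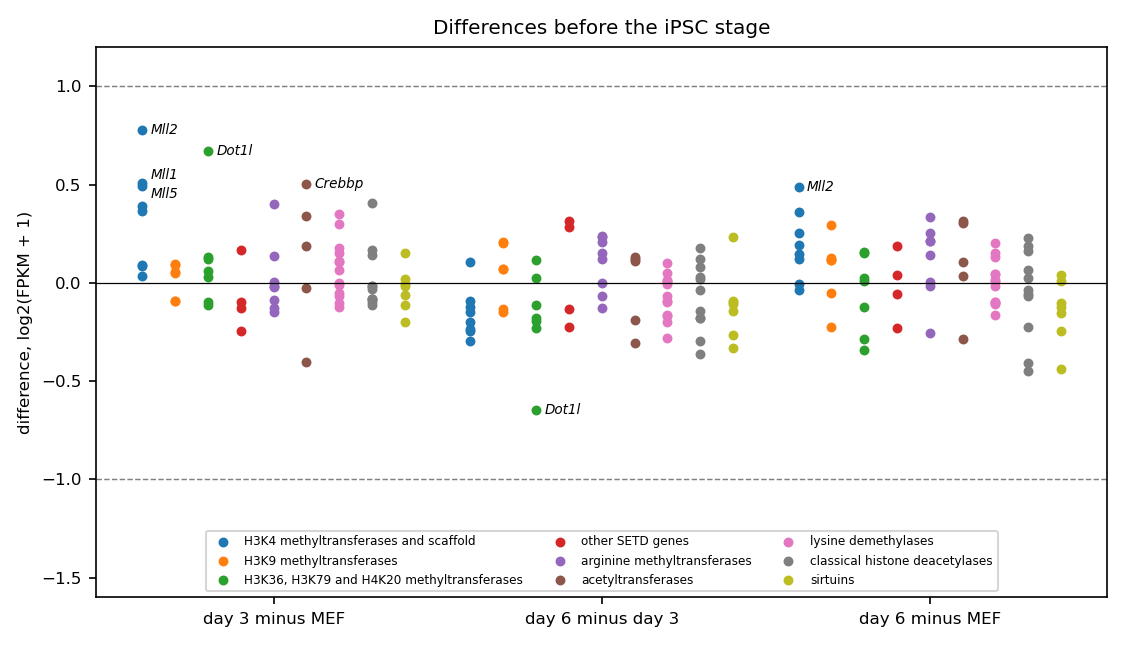
Differences in log2(FPKM + 1) between the 3 libraries before the iPSC stage, with 1 point per gene coloured by role and dashed lines at 1 and -1. No point reaches the dashed lines, and Mll2 (0.78) and Dot1l (0.67) are the highest at day 3 against MEFs.

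In iPSCs 23 members passed the rule against MEFs, 18 higher and 5 lower of 68 compared. Over all 12937 rows compared, 21.1% were higher and 25% lower (46% in either direction), while the members' shares were 26.5% and 7.4%. The 21.1% and 25% are also the background for the role group counts below. The members' median difference was 0.48, and that of all rows -0.05. Within the rule, 29 members lay above their MEF value and 16 below. Against day 6 in place of MEFs, 16 members were higher and 6 lower of 68 (20.4% and 23.4% of all 12951 rows compared, 43.8% in either direction). Both contrasts share the iPSC library. The difference of Prmt1 was 1.22 against MEFs and 0.88 against day 6, that of Kat2a 1.23 and 0.93, and that of Crebbp -0.93 and -1.24.

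Levels of 8 proliferation markers were also taken. Their summed level was 268 FPKM in MEFs, 279 on day 3, 346 on day 6 and 1353 in iPSCs, and all 8 (Mki67, Top2a and Ccnb1 among them) were past the rule in iPSCs against MEFs. The part of proliferation in the members' differences was not tested.

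**Figure D3:**
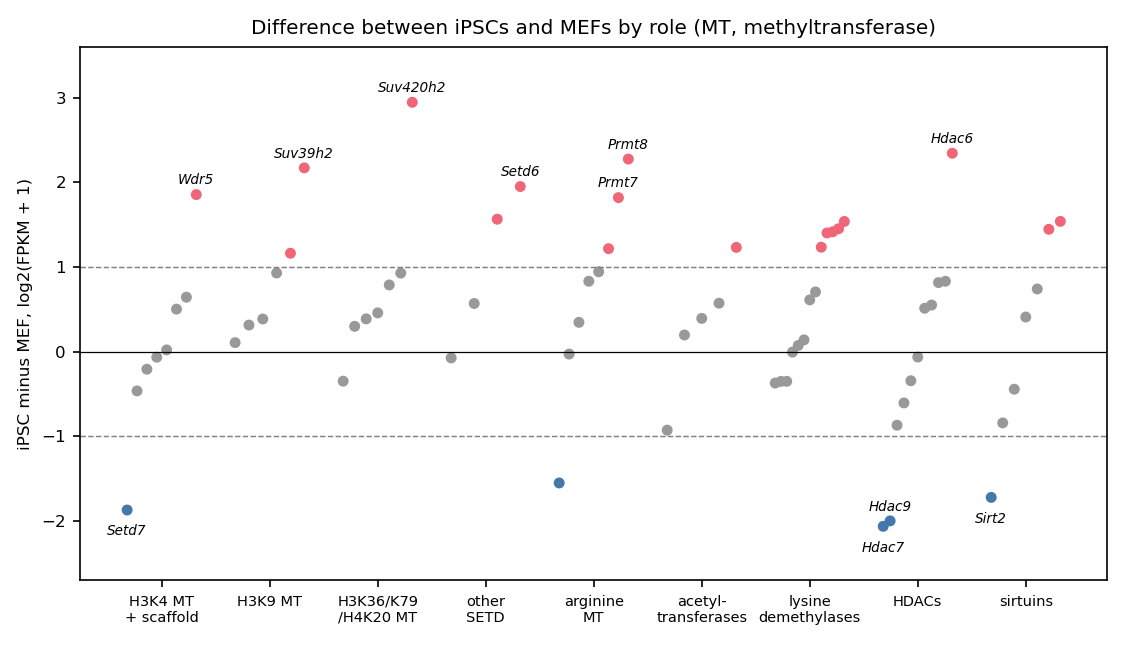
Difference between iPSCs and MEFs in log2(FPKM + 1) for each of the 69 genes, by role, with red points for genes called higher, blue for genes called lower and grey for the rest, and dashed lines at 1 and -1. Suv420h2 (2.95) is the highest point, Hdac7 (-2.07) the lowest, and the lysine demethylases hold 5 red and no blue points.

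Among the H3K4 methyltransferases and their scaffold, 1 of 8 was higher in iPSCs than in MEFs and 1 was lower. Their median was -0.02. Wdr5, the WD-repeat subunit shared by the MLL and SET1 complexes, was at 14.04 FPKM in MEFs, 14.4 on day 3, 15.6 on day 6 and 53.4 in iPSCs (difference from MEFs 1.86). Setd7, which monomethylates H3K4 and other proteins, was at 26.9, 28.7, 26.2 and 6.61 (-1.87). For both genes the first 3 libraries were close together and the iPSC library stood apart. The catalytic subunits of the large complexes stayed within the rule, with Setd1a at 5.21 and 7.79 FPKM in MEFs and iPSCs and Setd1b at 1.02 and 0.744. Other subunits of these complexes, from a separate list of partners, included Ash2l at 18.9 and 93.1, Dpy30 at 18.5 and 90.4 and Rbbp5 at 9.30 and 22.1 FPKM, all called higher. Of the same complexes, Cxxc1 (8.89 and 7.67 FPKM), Men1 (31.0 and 25.8) and Hcfc1 (14.7 and 23.6) were within the rule.

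All 6 H3K9 methyltransferase genes lay above their MEF values in iPSCs, with 2 past the rule and a group median of 0.66. Suv39h2, which trimethylates H3K9 in heterochromatin, was at 1.94 FPKM in MEFs, 2.13 on day 3, 2.61 on day 6 and 12.3 in iPSCs (difference from MEFs 2.17). Its relative Suv39h1 was at 8.43, 8.79, 9.28 and 17.0 (0.93), just under the rule. Suv39h2 thus made up 18.7% of the pair's summed FPKM in MEFs and 42.0% in iPSCs. Setdb1, which silences retroelements together with TRIM28, was at 8.72, 9.06, 9.56 and 20.8 (1.16), and Setdb2 at 5.14, 4.76, 5.65 and 6.63 (0.31). The partner gene Trim28 had 117 and 511 FPKM in MEFs and iPSCs. Ehmt1 (15.5 and 20.5 FPKM) and Ehmt2 (43.4 and 46.8), the G9a and GLP pair that dimethylates H3K9, were within the rule.

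Suv420h2 had the largest difference of all members. This gene of an H4K20 methyltransferase of heterochromatin was at 6.77 FPKM in MEFs, 6.19 on day 3, 5.13 on day 6 and 58.9 in iPSCs (difference from MEFs 2.95). Its relative Suv420h1 was at 15.4, 16.1, 14.1 and 11.9 (-0.35). The leading member of the pair was therefore Suv420h1 before the iPSC stage, with 69.5% of the summed FPKM in MEFs, and Suv420h2 in iPSCs, with 83.2%. Setd8, which places the monomethyl mark that both enzymes extend, was at 45.0, 42.1, 36.7 and 62.2 FPKM (0.46). The H3K36 genes Setd2 (23.6 and 31.1 FPKM in MEFs and iPSCs), Nsd1 (21.7 and 42.2) and Whsc1 (18.5 and 23.0) were within the rule, Nsd1 just under it with a difference of 0.93.

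Of the other 4 SETD genes, 2 passed the rule upwards in iPSCs against MEFs. Setd6, which methylates the NF-kB subunit RelA, was at 13.4, 11.2, 13.9 and 54.8 FPKM (difference from MEFs 1.95). Setd4 was at 1.75, 1.52, 2.14 and 7.15 (1.56). Setd3, known as a histidine methyltransferase of actin, was at 39.96, 37.3, 33.9 and 37.9, and Setd5 at 35.8, 40.3, 34.4 and 53.6. Setd6 overlaps Cnot1 in the GRCm38 annotation, and Cnot1 had 22.3 and 63.3 FPKM in MEFs and iPSCs. The strand setting of the counting is not given, so reads from overlapping genes may not be separated.

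The arginine methyltransferases held 3 higher and 1 lower gene of 8 in iPSCs, with a median of 0.89. Prmt7, which monomethylates arginines, was at 12.5 FPKM in MEFs, 13.9 on day 3, 15.2 on day 6 and 46.8 in iPSCs (difference from MEFs 1.82). Prmt1 was at 63.1 FPKM in iPSCs (1.22). Prmt8, a membrane-bound relative of Prmt1 known mainly from neurons, was at 0.0125 FPKM in MEFs, listed at 0 at day 3 and day 6, and at 3.90 in iPSCs (2.28), where it made up 5.83% of the pair's summed FPKM. Prmt2 went the other way, with 14.6, 13.2, 12.04 and 4.31 FPKM (-1.55). Prmt5, the main symmetric arginine methyltransferase, was at 17.8, 17.9, 20.8 and 35.1 (0.94), just under the rule, and Prmt10, now Prmt9, at 6.57, 6.45, 7.79 and 12.5 (0.83). Prmt3 (18.5 and 23.8 FPKM in MEFs and iPSCs) and Prmt6 (5.27 and 5.15) were within the rule.

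Of 5 acetyltransferase genes 1 was higher in iPSCs than in MEFs, and the paralogue pairs shifted. Kat2a (GCN5) was at 6.95, 8.07, 8.81 and 17.7 FPKM (difference from MEFs 1.23) and Kat2b (PCAF) at 13.0, 12.7, 14.03 and 17.3 (0.39). Crebbp was at 4.78 FPKM in iPSCs, 0.93 below MEFs and 1.24 below day 6, and Ep300 at 14.7, 0.57 above MEFs. Ep300 made up 48.9% of the summed FPKM of this pair in MEFs and 75.5% in iPSCs. Kat5, at 17.0 and 19.6 FPKM in MEFs and iPSCs, differed by 0.20.

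The lysine demethylases had 5 higher and 0 lower genes of 12 compared in iPSCs against MEFs, with a median of 0.66. Kdm5b, which removes H3K4 methylation, was at 28.4 FPKM in MEFs, 28.1 on day 3, 28.0 on day 6 and 76.6 in iPSCs (difference from MEFs 1.40). Its relative Kdm5a was at 25.3, 27.4, 26.1 and 26.7 (0.07). Kdm3a, an H3K9 demethylase, was at 10.3, 10.3, 10.4 and 29.9 (1.45), and Kdm3b at 9.70, 10.6, 9.82 and 16.4 (0.71). In Kdm5b and Kdm3a the 3 libraries before the iPSC stage differed by 0.02 or less in log2.

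Kdm4 and Kdm2 genes differed within their families. Kdm4c, which demethylates H3K9 and H3K36, was at 14.4, 16.4, 13.3 and 43.6 FPKM (difference from MEFs 1.54) and Kdm4b at 7.54, 6.97, 6.99 and 19.1 (1.23). Kdm4a was at 25.8, 24.8, 26.7 and 19.99 (-0.35), so the leading member of the family was Kdm4a in MEFs with 54.1% of the summed FPKM and Kdm4c in iPSCs with 52.7%. Kdm2b, an H3K36 demethylase that binds unmethylated CpG, was at 8.19, 10.3, 9.05 and 23.5 (1.42) and Kdm2a at 27.5, 30.7, 31.9 and 21.0 (-0.37). Kdm1a, which removes mono- and dimethyl marks from H3K4, had 44.0 and 67.7 FPKM in MEFs and iPSCs (0.61), Kdm1b at 6.68 and 7.45, and the H3K27 demethylase gene Kdm6b at 2.87 and 2.03.

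Classical HDAC genes were mixed, with 1 higher and 2 lower of 11 in iPSCs against MEFs and a median of -0.06. Hdac6, a cytoplasmic deacetylase of tubulin, was at 7.31 FPKM in MEFs, 6.85 on day 3, 7.01 on day 6 and 41.2 in iPSCs (difference from MEFs 2.34). The class IIa genes Hdac7 and Hdac9, whose products bind MEF2 factors, were the called lower genes. Hdac7 was at 14.4, 19.4, 17.1 and 2.68 FPKM (-2.07) and Hdac9 at 5.32, 4.97, 4.40 and 0.580 (-2.00). The other class IIa genes were within the rule, Hdac4 with 4.43 and 8.55 FPKM in MEFs and iPSCs (2.37 and 2.54 on its other row) and Hdac5 with 33.4 and 31.9. Slc48a1, which overlaps Hdac7 in the annotation, had 50.9 and 4.08 FPKM in MEFs and iPSCs.

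The class I HDAC genes were within the rule. Hdac1 and Hdac2 encode catalytic subunits of the SIN3, NuRD and CoREST complexes, and Hdac3 that of the NCoR complex. Hdac1 was at 18.7, 20.7, 18.2 and 34.1 FPKM (difference of iPSCs from MEFs 0.83) and Hdac2 at 50.1, 46.8, 50.9 and 71.9 (0.51). Hdac3 was at 32.6 and 25.4 FPKM in MEFs and iPSCs and Hdac8 at 5.89 and 2.77. Hdac10 was at 3.84 and 2.17, and Hdac11, the class IV gene, at 4.02 and 6.36. Against day 6, where it was at 2.69 FPKM, the difference of Hdac11 rounds to 1.00 and lies just under the rule.

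The sirtuin genes had 2 higher and 1 lower of 7 in iPSCs against MEFs. Sirt1, a nuclear deacetylase, was at 8.58, 8.50, 7.80 and 25.1 FPKM (difference from MEFs 1.45) and Sirt3, a mitochondrial one, at 3.58, 3.64, 2.87 and 12.3 (1.54). Sirt2 was at 8.54 FPKM in iPSCs, against 30.5 in MEFs (-1.72). Sirt2 was thus the most abundant sirtuin in MEFs, with 41.3% of the family's summed FPKM, and Sirt1 in iPSCs, with 32.0%. The family summed to 73.7 and 78.4 FPKM. Sirt4 (7.95 and 13.9 FPKM), Sirt5 (4.20 and 2.82), Sirt6 (6.89 and 9.46) and Sirt7 (12.1 and 6.28) were within the rule.

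Of 18 sets of related genes, 6 had another leading member in iPSCs than in MEFs. These were Suv420h1 and Suv420h2, Kat2a and Kat2b, Ep300 and Crebbp, Kdm2a and Kdm2b, the Kdm4 genes, and the sirtuins. In 3 pairs the order rests on close values. The MEF levels of Ep300 and Crebbp were 9.56 and 10.0 FPKM, the iPSC levels of Kat2a and Kat2b 17.7 and 17.3, and those of Kdm2b and Kdm2a 23.5 and 21.0.

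**Figure D4:**
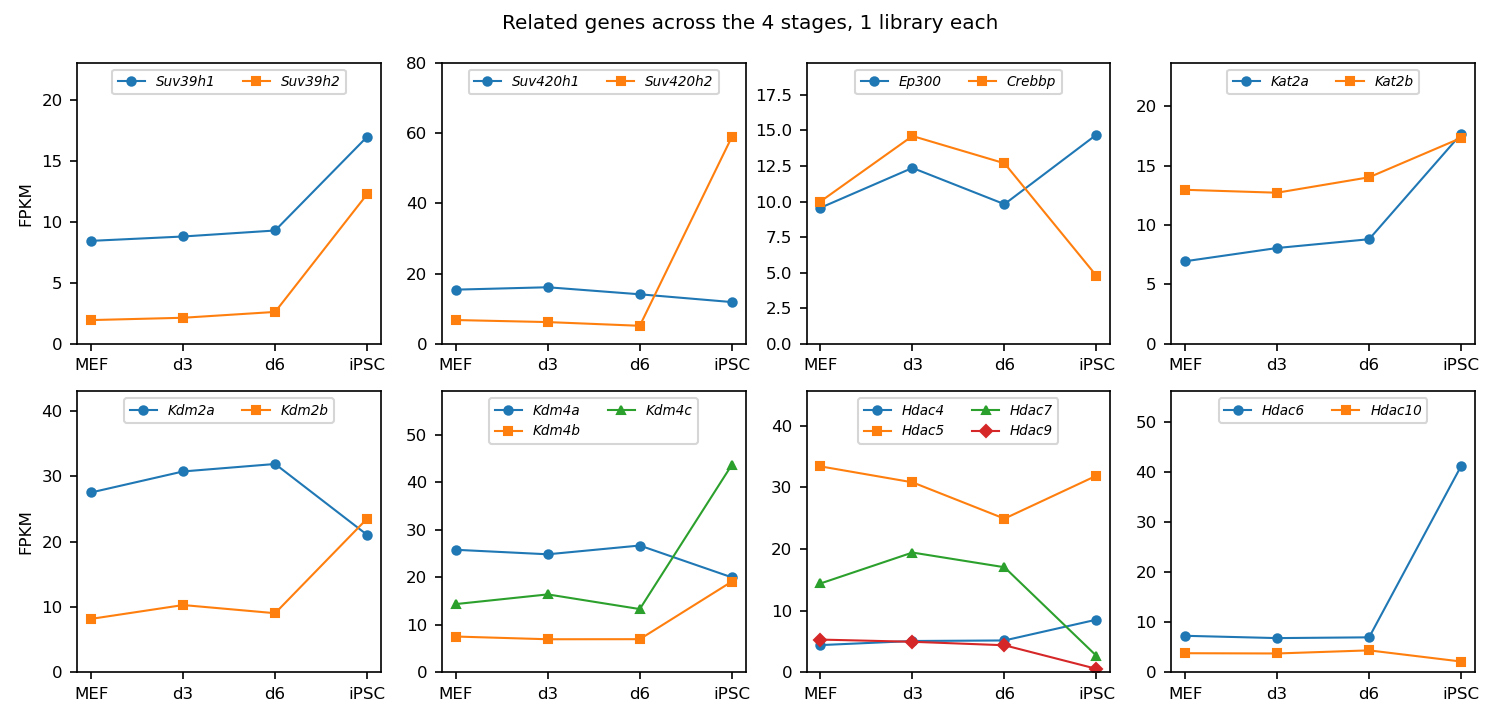
FPKM of 8 sets of related genes in the MEF, day 3 (d3), day 6 (d6) and iPSC libraries, with 1 line per gene and axes that start at 0. Lines cross between day 6 and iPSCs for Suv420h1 and Suv420h2, for Ep300 and Crebbp, for Kat2a and Kat2b and for Kdm2a and Kdm2b. They also cross there for Kdm4a and Kdm4c and for Hdac4 and Hdac7.

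Writers and erasers of the same mark were summed in sets formed after the values had been seen. Enzymes that remove H3K4 methylation (Kdm1a, Kdm1b, Kdm5a and Kdm5b) summed to 104 FPKM in MEFs, 104 on day 3, 99.5 on day 6 and 178 in iPSCs. The set of 6 H3K4 methyltransferases leaves out the divergent Mll5. It also leaves out Wbp7, a related gene under another name, with 4.11 and 7.72 FPKM in MEFs and iPSCs. The 6 genes summed to 46.0, 55.4, 49.2 and 32.5, and without Setd7 the other 5 summed to 19.1, 26.8, 23.0 and 25.9. The direction of the writer sum between MEFs and iPSCs thus turned on Setd7. The ratio of writers to erasers was 0.44 in MEFs and 0.18 in iPSCs, and 0.18 and 0.15 without Setd7.

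The H3K9 and H3K36 eraser sets share Kdm4a, Kdm4b and Kdm4c. For H3K9 the writers summed to 83.1 FPKM in MEFs and 124 in iPSCs and the erasers to 67.8 and 129, a ratio of 1.23 and then 0.96. For H3K36 the sum of the writers in iPSCs was 1.51 times that in MEFs (63.8 and 96.3 FPKM) and that of the erasers 1.53 times (83.4 and 127). The 5 acetyltransferases summed to 56.5 FPKM in MEFs and 74.1 in iPSCs and the 11 HDAC genes to 180 and 228, a ratio of HDAC to acetyltransferase of 3.19 and then 3.07. Hdac6, whose product is a cytoplasmic deacetylase of tubulin, was at 7.31 and 41.2 FPKM within the HDAC sum. The acetyltransferase sum leaves out genes under other names, such as Hat1 and Myst2. The H3K36 writer sum leaves out Ash1l (11.8 and 5.27 FPKM in MEFs and iPSCs) and Whsc1l1 (10.4 and 6.29). The 1.51 times of the H3K36 writers and the ratio of HDAC to acetyltransferase therefore depend on which genes are summed. All of these are sums of RNA and not of enzyme activity.

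**Figure D5:**
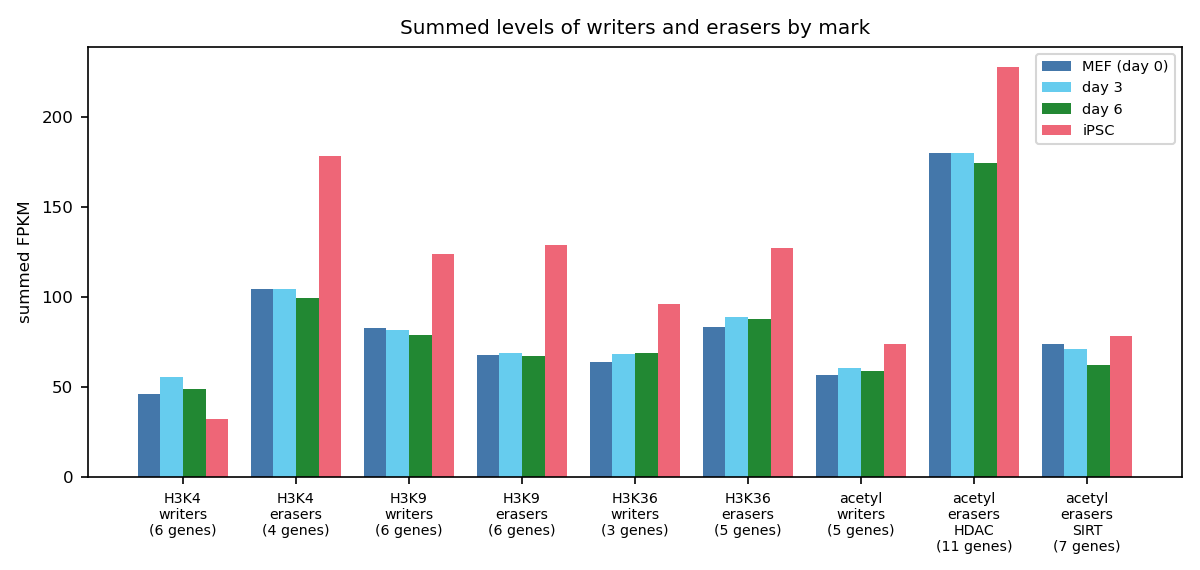
Summed FPKM of writers and erasers of H3K4, H3K9 and H3K36 methylation and of acetylation in the 4 libraries, with the number of genes in each set under its bars and an axis from 0. The iPSC bar is the highest in every set but the H3K4 writers, whose sum was 32.5 in iPSCs against 46.0 in MEFs.

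Genes of the same functions under other names were counted by the same rule. In iPSCs against MEFs, 6 of 26 related enzymes compared were higher (23.1%) and 2 lower (7.7%), with a median of 0.39. Of all rows compared, 21.1% were higher and 25% lower. Hat1, the acetyltransferase of new histone H4, was at 26.4 and 323 FPKM, Ncoa3 at 9.53 and 47.7, Smyd3 at 8.44 and 32.7, and Myst2, now Kat7, at 22.0 and 63.6. The lower genes were Ash1l, an H3K36 methyltransferase, with 11.8 and 5.27 FPKM and the demethylase Phf2 with 8.19 and 2.92. Of 28 complex partners 9 were higher (32.1%) and 0 lower (median 0.39). The CoREST subunit Rcor2 was at 2.40 and 37.0 FPKM and its relative Rcor1 at 12.1 and 7.96. At day 3 and day 6 no gene of either list passed the rule, where 0.221% to 1.35% of all rows did. At such shares, lists of this size would hold few or no called genes.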

How the data were processed

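Long RNA of 4 of the 8 samples was analysed, and the 4 small RNA samples were not used here. Values are FPKM as deposited by the authors, 1 column per stage per the file headers. The submitters' processing notes name HISAT2, Cufflinks and the mouse build mm9, without version or role. The sources used here do not give the gene models, filters, strand setting or depth. Ribosomal RNA was removed per the labels' protocols. With Python 3.11.15 and pandas 2.3.3, members were matched by symbol, the highest row standing for a symbol on several rows. Differences were taken on log2(FPKM + 1), and a gene was called at a difference of 1 with at least 1 FPKM in the higher library. With 1 library per stage no test was made. The calling code was tested on simulated data. Named genes are the members called in any contrast, the most abundant or most different, and those in sets of related genes, and most others are given for completeness. Members and lists were chosen with earlier results of these data known. Current names were found for 68 members. RefSeq tables on GRCm38.p6 gave promoters for 57 members and overlapping genes for 69. Alternatives changed the pseudocount, the minimum, the difference, the scaling and the handling of shared symbols.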

Additional observations from a re-analysis of the deposited data

How the results depend on the processing

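No call has a replicate check, and depth is known only relative to the MEF library. No paired analysis was possible because every stage had a single library, so no replicate could be left out either. Of 135 counts and medians of members under the 9 alternatives, 123 stayed within 1.5 times the reported value or, for medians, within 0.1 of it. The rest were counts. Part of this stability was fixed in advance, because medians do not depend on the required difference. Nor can a stricter rule change an early count of 0. With a pseudocount of 0.1, 1 member was higher at day 3 than in MEFs, and with one of 5, 3 were lower in iPSCs than at day 6. With a log2 difference of 2, 3 were higher and 1 lower in iPSCs against day 6, and 4 and 2 against MEFs. With a 1.5-fold difference, 2 were higher at day 3 than in MEFs, 1 was lower at day 6 than at day 3, 31 were higher and 10 lower in iPSCs against day 6, and 29 and 9 against MEFs. These shifts follow from the threshold itself. Rescaling to the same upper quartile moved the median of all rows for iPSCs against MEFs from -0.05 to 0.11 and that of the members from 0.48 to 0.65, so the members lay 0.53 and 0.54 above all rows. Under that scaling and the median ratio, Nsd1, Prmt5 and Suv39h1 were also called higher, and the sign of Hdac5, Kdm4d, Prmt6 and Setd3, which lay between -0.08 and 0, turned under both and that of Mll2 under the first. With a pseudocount of 5, Hdac9, Kat2a, Kdm4b, Prmt8, Setd4 and Setdb1 were no longer called in iPSCs against MEFs, and with a pseudocount of 0.1 Crebbp and Hdac8 were called lower. Against day 6, Crebbp (-0.86), Hdac9, Prmt2, Prmt8, Setd4 and Setdb1 were no longer called with a pseudocount of 5. In that contrast Hdac11, Kat2a, Nsd1 and Prmt1 were also called higher under upper quartile scaling. A change of pseudocount, minimum or required difference cannot turn the sign of a difference, so only the rescalings could do so for called members. Under the rescalings no member called in iPSCs against MEFs or against day 6 changed direction.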

Other observations

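Of the 24 members called in any contrast, 6 overlap another protein-coding gene in the GRCm38 annotation. Besides Setd6 and Hdac7 these were Suv39h2, Setdb1, Kdm5b and Sirt3. Dclre1c, which overlaps Suv39h2, was at 3.32 FPKM in MEFs, 4.32 on day 3, 3.04 on day 6 and 4.25 in iPSCs.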
